A study of Mus musculus with 14 samples.

Results

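The 36 genes described here break down glucose or belong to the response to low oxygen, and were read out in follicular B cells of the mouse spleen. They were found among the 39179 gene IDs of the count tables by matching Ensembl IDs to mouse symbols, and each had enough counts to be tested. By role they are 4 transporters of glucose or monocarboxylates, 16 enzymes of glycolysis, 3 regulators of its flux, the HIF-1α gene Hif1a with 2 prolyl hydroxylases, and 10 further target genes of HIF. The cells came from C57BL/6 mice of 3 genotypes: wild type (wt), crel-/- (cko, without the NF-κB subunit c-Rel) and relb-/-crel-/- (dbko, without RelB as well as c-Rel), so that the c-Rel loss is common to both mutants. Time points were 0h and 6h for every genotype and also 27h for wt, with BAFF at 50 ng per ml, which gives 7 groups of 2 RNA-seq libraries and 14 libraries in all. The cells were prepared with a kit for isolating marginal zone and follicular B cells. The labels give neither the oxygen level nor the age of the mice. They also do not tell whether a group's libraries are separate animals, cultures or preparations, so p-values measure the spread between these libraries only. Each gene's spread was estimated over all 7 groups together, so the p-value of a comparison also depends on groups outside it. The dbko 6h libraries differed most, with 20 of the 36 genes at least 2-fold apart. No culture without BAFF was analysed here, so BAFF and time in culture cannot be told apart.

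Glycolysis turns glucose into pyruvate in the cytosol, and lactate dehydrogenase then makes lactate, which monocarboxylate transporters carry out of the cell. HIF is a transcription factor made of an unstable α subunit and the stable partner ARNT: with oxygen present, prolyl hydroxylases of the EGLN family mark the α subunit for removal through VHL, and without it HIF switches on most glycolytic genes, mitophagy genes and vessel-forming signals. BAFF is a survival cytokine of mature B cells that signals largely through NF-κB and is known to raise their metabolic capacity.

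Library depth lay between 10497802 and 11888765 gene counts. Rel, the gene of c-Rel, had 621 to 683 CPM (counts scaled to a common library size by TMM, a normalization that sets typical genes equal) in the wt libraries of the first pair of times, and 40.01 to 111 in the mutants. Relb had 53.0 to 88.4 CPM in dbko and 115 to 195 in wt and cko at those times. Ms4a1 and Cd79a, defining B cell genes, were at 647 CPM or more in every library. Of 11 T cell markers, which summed to 51.5 to 100.8 CPM, Lck made up most (34.7 to 95.8 CPM), Cd3e was at 0.183 or less, and Cd8a reached 14.6 and 20.6 in dbko at 0h. The dbko libraries stood apart from the rest. Summed erythroid markers, 13 genes with haemoglobin and Alas2 among them, came to 1896 and 1107 CPM in dbko at 0h against 203 and 210 in wt. Nearly all of that wt sum was a single marker, Tfrc (187 and 194 CPM), whereas Tfrc supplied 571 and 449 CPM of the dbko sum. Summed macrophage markers came to 671 and 347 CPM in dbko at 6h, against 104 and 92.2 in wt at 6h and 536 and 545 in wt at 27h. Hmox1, a haem oxygenase that other stressed cells make too, was 365 and 244 CPM of these sums in dbko at 6h and 464 and 467 in wt at 27h. G2 and mitosis genes summed to 1297 and 1533 CPM in dbko replicate 1 (0h, 6h) and to 509 and 393 in replicate 2. In bulk RNA, fewer cells of a type and less RNA per cell cannot be told apart.

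Of the 36 members, 7 share over 20% of their 50-base windows with transcripts of other genes, mostly processed pseudogenes, and their counts are uncertain: Pgk1 (53.9%), Bnip3 (47.2%), Pgam1 (36.2%), Eno1 (26.0%), Pkm (25.8%), Gapdh (25.1%) and Bnip3l (20.8%). Reads that matched several places were outside the gene counts, and Gapdh, usually among the most abundant transcripts of any cell, had only 2.29 to 18.5 CPM. Some members also overlap another gene's exons, as Pfkp does with Pitrm1 on the opposite strand and Pfkm with Gm26513 on its own, and the sources used here do not tell whether counting used strand.

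At 0h the wt cells already transcribed most of the pathway. Per kilobase of exon, the highest members at 0h were the aldolase Aldoa at 107 ± 6.53 CPM per kb (SD, n = 2), the lactate dehydrogenase Ldha at 72.3 ± 2.15, the glucose-6-phosphate isomerase Gpi1 at 51.2 ± 0.226 and the pyruvate kinase Pkm at 46.8 ± 2.60. The lactate and pyruvate transporter Slc16a1 followed at 44.7 ± 0.0806, and the glucose transporter Slc2a1 at 43.2 ± 0.241 CPM per kb. These neighbours do not all separate beyond their spread: Pkm and Slc16a1 lie within 1 SD of Pkm of each other. At the bottom of the order stood 3 genes that later rose steeply, namely Slc16a3 at 0.0847 ± 0.00894, Eno2 at 0.116 ± 0.0392 and Egln3 at 0.417 ± 0.0750 CPM per kb. Hif1a itself was seventh in rank, at 28.9 ± 1.26 CPM per kb.

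**Figure D1:**
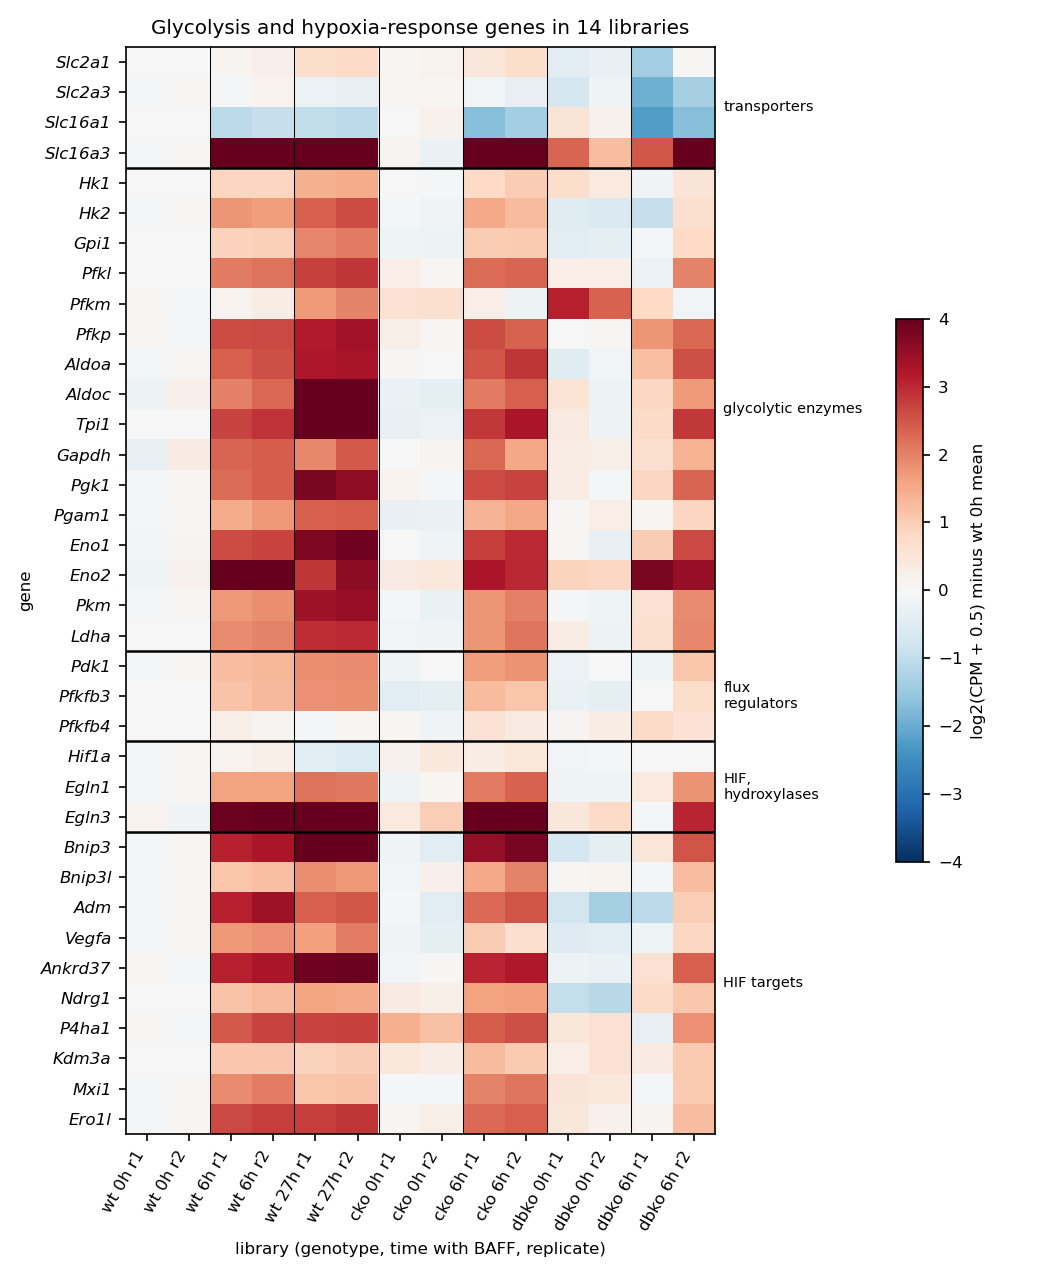
Level of each of the 36 members (rows, in blocks by role) in each of the 14 libraries (columns) as log2(CPM + 0.5) minus the mean of the wt 0h libraries, red above and blue below. Most rows are red in the wt 6h, wt 27h and cko 6h columns, whereas dbko 6h replicate 1 is pale and dbko 6h replicate 2 is red, and Pfkm is red in both dbko 0h columns.

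The first comparison asks what 6h with BAFF did in wt cells. Of the 36 members 31 were called, where called means an adjusted p under 0.05 in edgeR's quasi-likelihood test over 12630 genes: 30 rose and 1, Slc16a1, fell. Over all genes tested 46.2% were called (22.6% higher, 23.5% lower), so change in itself was common, and the members' median log2 fold change was 1.87 against -0.004 for all genes. The rise took in 15 of 16 enzymes, all 10 HIF targets, both prolyl hydroxylases, 2 of 3 flux regulators and 1 of 4 transporters. Leaving out any 1 library kept 29 of the 31 calls. The exceptions were Pfkl, with adjusted p up to 0.0567 without a wt 0h library, and Bnip3l, with adjusted p up to 0.0881 without either wt 0h library or wt 6h replicate 2. At 27h, 33 of 36 were called against 47.6% of all genes (23.0% higher, 24.6% lower), 31 higher and 2 lower, with a median of 2.50 against 0.003 for all genes, and all 33 kept their call with any 1 library left out.

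As a share of all gene counts, the 16 enzymes took 0.134% and 0.141% in the wt libraries of 0h, then 0.605% and 0.651% after 6h, then 1.38% and 1.46% after 27h. The HIF targets took 0.0359% and 0.0374%, then 0.138% and 0.148%, then 0.171% and 0.176%. The 4 transporters together took 0.0393% and 0.0404% to begin with and 0.0392% and 0.0422% after 6h. The enzymes' share thus went on growing to 27h, the HIF targets made most of their gain by 6h, and the transporters' sum was nearly level to 6h while its makeup changed.

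**Figure D2:**
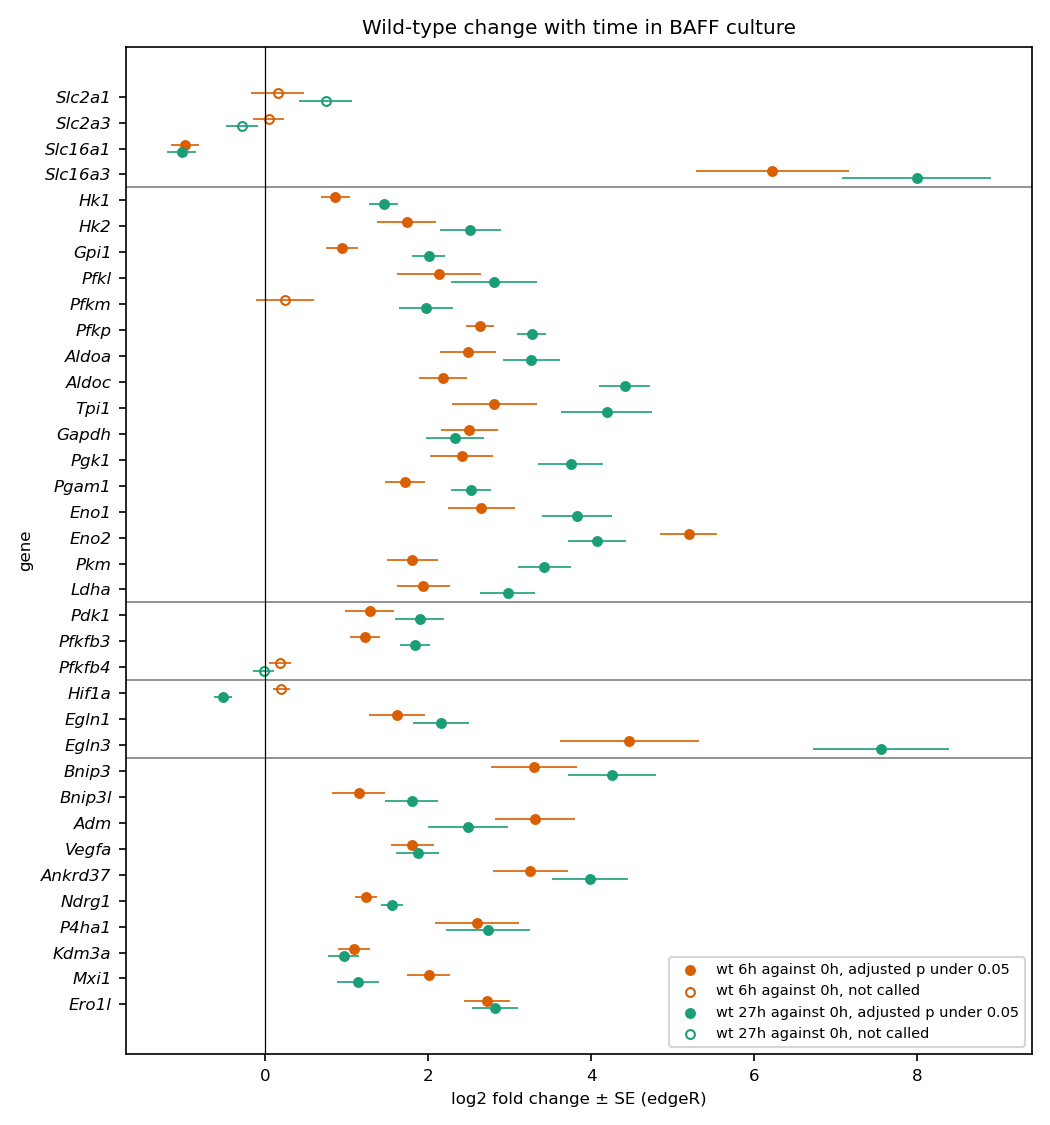
Log2 fold change of each member in wt at 6h (orange) and 27h (green) against 0h, with its standard error from edgeR; filled points passed the adjusted p threshold of 0.05, and grey lines divide the roles. Slc16a3, Eno2 and Egln3 lie farthest to the right, Slc16a1 lies left of 0 at both times, and Slc2a1, Slc2a3 and Pfkfb4 are open points at both.

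Among the transporters, the change was an exchange of lactate carriers. Slc16a3, which encodes MCT4, the low-affinity lactate exporter of glycolytic cells, had 0.417 and 0.484 CPM in the wt libraries at 0h, 34.4 and 34.7 at 6h, and 119 and 117 at 27h. It rose by 6.22 ± 0.94 (log2 fold change ± SE, adjusted p = 0.000525) at 6h and by 7.99 ± 0.91 (adjusted p = 8.44e-05) at 27h. Its 0h counts were 4 and 5 reads, so the size of the fold is poorly fixed, but no later wt library came near them. Slc16a1, which encodes the higher-affinity MCT1, went the other way: 198 and 197 CPM at 0h, 96.0 and 104 at 6h, 98.9 and 95.3 at 27h, a drop to about the same level at both times (-0.99 ± 0.17, adjusted p = 0.000584, and -1.03 ± 0.17, adjusted p = 0.000413). The glucose carriers were not called at either time: Slc2a1 (GLUT1) had 151 and 152 CPM at 0h, 162 and 175 at 6h, and 249 and 257 at 27h (0.74 ± 0.33 at 27h, adjusted p = 0.0876), and Slc2a3 (GLUT3) differed by 0.04 ± 0.19 and -0.28 ± 0.19.

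For the enzymes, the steepest gain at 6h was in Eno2, the neuron-type enolase: 0.417 and 0.678 CPM at 0h, 19.5 and 21.7 at 6h, then 6.97 and 11.9 at 27h (5.20 ± 0.35 at 6h, adjusted p = 4.32e-07). It is the only enzyme whose 27h level lay below its 6h level in a call. Tpi1, the triose phosphate isomerase, had 62.2 and 62.8 CPM at 0h, 407 and 472 at 6h, and 1136 and 1150 at 27h (2.81 ± 0.53, adjusted p = 0.00186, and 4.19 ± 0.56, adjusted p = 0.000223). Aldoc, a second aldolase, had 10.7 and 14.3 CPM, then 51.9 and 62.3, then 257 and 277 (2.18 ± 0.30 and 4.41 ± 0.31). For both genes each later library lay above every earlier wt library. Over all genes tested, 40.9% had both 6h libraries above both 0h libraries, and 40.5% had both 27h libraries above both 6h libraries.

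Aldoa, the main aldolase, started high at 298 and 324 CPM and reached 1641 and 1846 at 6h and 2907 and 3074 at 27h (2.49 ± 0.34 and 3.27 ± 0.35). Pfkp, a platelet-type phosphofructokinase of the committed step, had 80.8 and 72.7 CPM, then 474 and 481, then 688 and 792 (2.64 ± 0.17, adjusted p = 3e-07, and 3.27 ± 0.17). Ldha, at the branch to lactate, had 234 and 244 CPM, then 881 and 957, then 1874 and 1897 (1.94 ± 0.33, adjusted p = 0.000665, and 2.98 ± 0.34). By level these 3 again rose in steps, with no overlap between times. The second step, from 6h to 27h, was not called for Aldoa (0.78, adjusted p = 0.0852). It was called for Pfkp and Ldha, but neither call held with each library left out.

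Of the enzymes with much shared sequence, Eno1, the widespread enolase, had 48.8 and 55.7 CPM at 0h, 319 and 339 at 6h and 706 and 781 at 27h (2.65 ± 0.41 and 3.83 ± 0.43). Pgk1, which makes the first ATP of the pathway, had 7.09 and 8.04, then 37.7 and 42.9, then 109 and 94.2 CPM (2.41 ± 0.39 and 3.75 ± 0.40), and Pkm, which makes the last, had 225 and 243, then 784 and 851, then 2431 and 2596 (1.81 ± 0.31 and 3.43 ± 0.33). Gapdh had 2.29 and 3.87, then 17.1 and 18.2, then 12.7 and 18.5 CPM (2.51 ± 0.35 and 2.33 ± 0.35), so its 6h and 27h libraries overlapped. The other enzymes called at 6h, namely Hk1, Hk2, Gpi1, Pfkl and Pgam1, rose by 0.86 to 2.13 in log2 fold change. Pfkm, the muscle-type phosphofructokinase, was the enzyme not called at 6h (0.25 ± 0.35, adjusted p = 0.594), yet it rose by 1.98 ± 0.33 (adjusted p = 0.000412) at 27h, from 3.96 and 3.68 to 13.4 and 16.7 CPM.

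The flux regulators set how much glucose carbon enters glycolysis and how much pyruvate enters the mitochondrion. Pdk1, the kinase that switches off pyruvate dehydrogenase, had 70.1 and 74.9 CPM at 0h, 172 and 181 at 6h, and 267 and 273 at 27h (1.28 ± 0.30, adjusted p = 0.00546, and 1.90 ± 0.30). Pfkfb3, which makes the allosteric activator of phosphofructokinase, had 70.8 and 72.1, then 158 and 175, then 255 and 259 CPM (1.22 ± 0.18 and 1.84 ± 0.19). Its relative Pfkfb4 was not called, at 36.4 and 37.1, 43.4 and 40.1, and 34.9 and 37.6 CPM.

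In the HIF pathway the transcript of the α subunit and those of its hydroxylases moved apart. Hif1a had 165 and 176 CPM at 0h, 189 and 202 at 6h (0.20 ± 0.11, adjusted p = 0.146) and 123 and 115 at 27h, where it fell by 0.51 ± 0.11 (adjusted p = 0.00184). Egln3, the hydroxylase PHD3, had 1.25 and 0.968 CPM at 0h, 23.8 and 25.7 at 6h and 208 and 213 at 27h (4.47 ± 0.86, adjusted p = 0.00213, and 7.56 ± 0.83, adjusted p = 6.84e-05). Egln1, the hydroxylase PHD2, had 38.6 and 40.5, then 121 and 122, then 182 and 170 CPM (1.62 ± 0.34, adjusted p = 0.00333, and 2.16 ± 0.35). Both hydroxylases are themselves known HIF targets.

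The HIF targets rose in every case, at both times. Adm, a vessel-dilating peptide, had 8.75 and 9.29 CPM at 0h, 81.0 and 98.8 at 6h, and 49.2 and 52.3 at 27h (3.31 ± 0.49, adjusted p = 0.000452, and 2.49 ± 0.49). Bnip3, a mitophagy receptor, had 4.79 and 5.42, then 47.6 and 53.3, then 98.8 and 97.5 CPM (3.30 ± 0.53 and 4.26 ± 0.54). Ankrd37, an ankyrin-repeat protein, had 9.59 and 8.52, then 81.7 and 90.9, then 142 and 145 CPM (3.25 ± 0.46 and 3.99 ± 0.46). By level, Adm was thus highest at 6h among these times, and Bnip3 and Ankrd37 at 27h. None of these differences between 6h and 27h was called.

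Ero1l, an oxidase of protein folding in the endoplasmic reticulum, had 29.7 and 33.3 CPM at 0h, 198 and 217 at 6h and 217 and 230 at 27h (2.72 ± 0.28 and 2.83 ± 0.28). P4ha1, the collagen prolyl hydroxylase subunit, had 29.3 and 27.6, then 158 and 187, then 186 and 193 CPM (2.60 ± 0.51 and 2.74 ± 0.51). Mxi1, a repressor that competes with MYC for MAX, had 17.9 and 19.3, then 71.0 and 78.9, then 40.6 and 41.4 CPM (2.01 ± 0.26, and 1.14 ± 0.26 at adjusted p = 0.00399). Vegfa, the vessel growth factor, had 34.2 and 37.9, then 122 and 130, then 114 and 150 CPM (1.81 ± 0.26 and 1.87 ± 0.27). The remaining targets Bnip3l, Ndrg1 and Kdm3a rose by 1.09 to 1.24 at 6h and by 0.963 to 1.799 at 27h.

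HIF binds a short core, ACGTG or GCGTG, so the 250 bases before the annotated starts of the members were searched for both, on either strand, in RefSeq sequence of mouse build GRCm38.p6. A window was held for 32 of the 36 genes, with 50 windows in all, and Ero1l, Bnip3l, Slc2a3 and Ndrg1 had none. Of the 32, 29 (90.6%) had ACGTG or GCGTG in at least 1 window and 19 (59.4%) had ACGTG. The same search found ACGTG or GCGTG for 61.9% and ACGTG for 25.5% of the 9422 tested genes with a window, and for 41.5% and 18.5% of the 27025 genes in the whole table. Base composition was similar, with a median GC content of 60.4% in members' windows and 59.6% in those of tested genes. The number of windows was not: members had 50 for 32 genes and tested genes 12012 for 9422. More windows per gene give more places for a match, and the shares were not corrected for this. CACGTG, which contains ACGTG on both strands and is also the E-box bound by MYC, was present for 6 (18.8%) of the members and for 10.1% of tested genes. A match describes letters only.

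The upstream sequences below are shown because they carry the core, and were picked for it: they belong to 4 members that rose steeply (Slc16a3, Egln3, Bnip3, Ankrd37), to 2 enzymes with several copies (Pgk1, Ldha), and to the member that fell at both times (Slc16a1). They do not stand for all steep rises, since the windows of Eno2 and Tpi1 hold no copy. They run 5′ to 3′ on the gene's strand, with ACGTG or GCGTG, or their reverse complements, in capitals, and stop short of annotated exons.
Slc16a3: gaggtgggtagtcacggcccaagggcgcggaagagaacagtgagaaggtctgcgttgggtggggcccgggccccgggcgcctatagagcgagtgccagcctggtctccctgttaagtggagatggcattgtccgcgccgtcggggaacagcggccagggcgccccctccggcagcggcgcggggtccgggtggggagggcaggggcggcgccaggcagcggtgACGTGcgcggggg
Egln3: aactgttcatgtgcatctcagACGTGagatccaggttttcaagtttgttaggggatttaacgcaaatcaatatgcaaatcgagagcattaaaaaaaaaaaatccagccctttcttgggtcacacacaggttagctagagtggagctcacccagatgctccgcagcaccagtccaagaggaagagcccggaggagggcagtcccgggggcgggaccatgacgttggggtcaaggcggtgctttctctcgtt
Bnip3: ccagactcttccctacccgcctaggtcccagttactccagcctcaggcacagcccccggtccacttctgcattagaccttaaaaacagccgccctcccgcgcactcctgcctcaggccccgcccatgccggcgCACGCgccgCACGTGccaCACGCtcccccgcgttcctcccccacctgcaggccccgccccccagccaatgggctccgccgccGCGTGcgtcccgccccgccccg
Ankrd37: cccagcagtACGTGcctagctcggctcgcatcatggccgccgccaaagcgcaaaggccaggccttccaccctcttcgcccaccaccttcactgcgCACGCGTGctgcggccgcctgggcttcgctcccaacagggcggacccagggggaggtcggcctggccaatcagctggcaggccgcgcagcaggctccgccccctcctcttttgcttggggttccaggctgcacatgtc
Pgk1: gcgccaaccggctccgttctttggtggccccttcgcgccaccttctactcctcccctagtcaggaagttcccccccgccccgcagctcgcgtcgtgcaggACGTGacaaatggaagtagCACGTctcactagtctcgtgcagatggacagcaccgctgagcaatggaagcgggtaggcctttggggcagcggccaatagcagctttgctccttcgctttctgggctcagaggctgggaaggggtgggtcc
Ldha: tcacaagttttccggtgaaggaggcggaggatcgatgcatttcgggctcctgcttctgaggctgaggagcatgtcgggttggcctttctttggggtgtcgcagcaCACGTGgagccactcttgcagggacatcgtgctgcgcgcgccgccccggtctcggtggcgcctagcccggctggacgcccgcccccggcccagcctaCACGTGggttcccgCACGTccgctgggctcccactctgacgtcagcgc
Slc16a1: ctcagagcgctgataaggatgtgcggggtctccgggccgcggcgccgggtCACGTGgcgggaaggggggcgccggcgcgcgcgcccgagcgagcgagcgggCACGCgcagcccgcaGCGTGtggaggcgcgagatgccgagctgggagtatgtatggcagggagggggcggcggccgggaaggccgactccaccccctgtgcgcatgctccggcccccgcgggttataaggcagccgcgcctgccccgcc
In GRCm38.p6 these lie at chr11:120948817-120949052, plus strand for Slc16a3, chr12:54203875-54204124, minus strand for Egln3, chr7:138909520-138909756, minus strand for Bnip3, and chr8:45999868-46000100, minus strand for Ankrd37. Pgk1 is at chrX:106186850-106187099, plus strand, Ldha at chr7:46845554-46845803, plus strand, and Slc16a1 at chr3:104638414-104638663, plus strand. The Slc16a3 window, in full, holds 2 ACGTG copies, which begin 27 and 14 bases before the start. Bnip3 holds a CACGTG that begins 108 bases before the start, among 3 copies of GCGTG. The Ldha window shown holds CACGTG at 145 and again at 48 bases before its start. Egln3 has a lone ACGTG, 229 bases before. Slc16a1, which fell, holds CACGTG and GCGTG as well, and so does the window of Hif1a hold ACGTG. By contrast Tpi1, Eno2 and Gpi1 had neither ACGTG nor GCGTG in their windows, although all 3 rose. The core was thus found in members that rose and in members that fell.

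**Figure D3:**
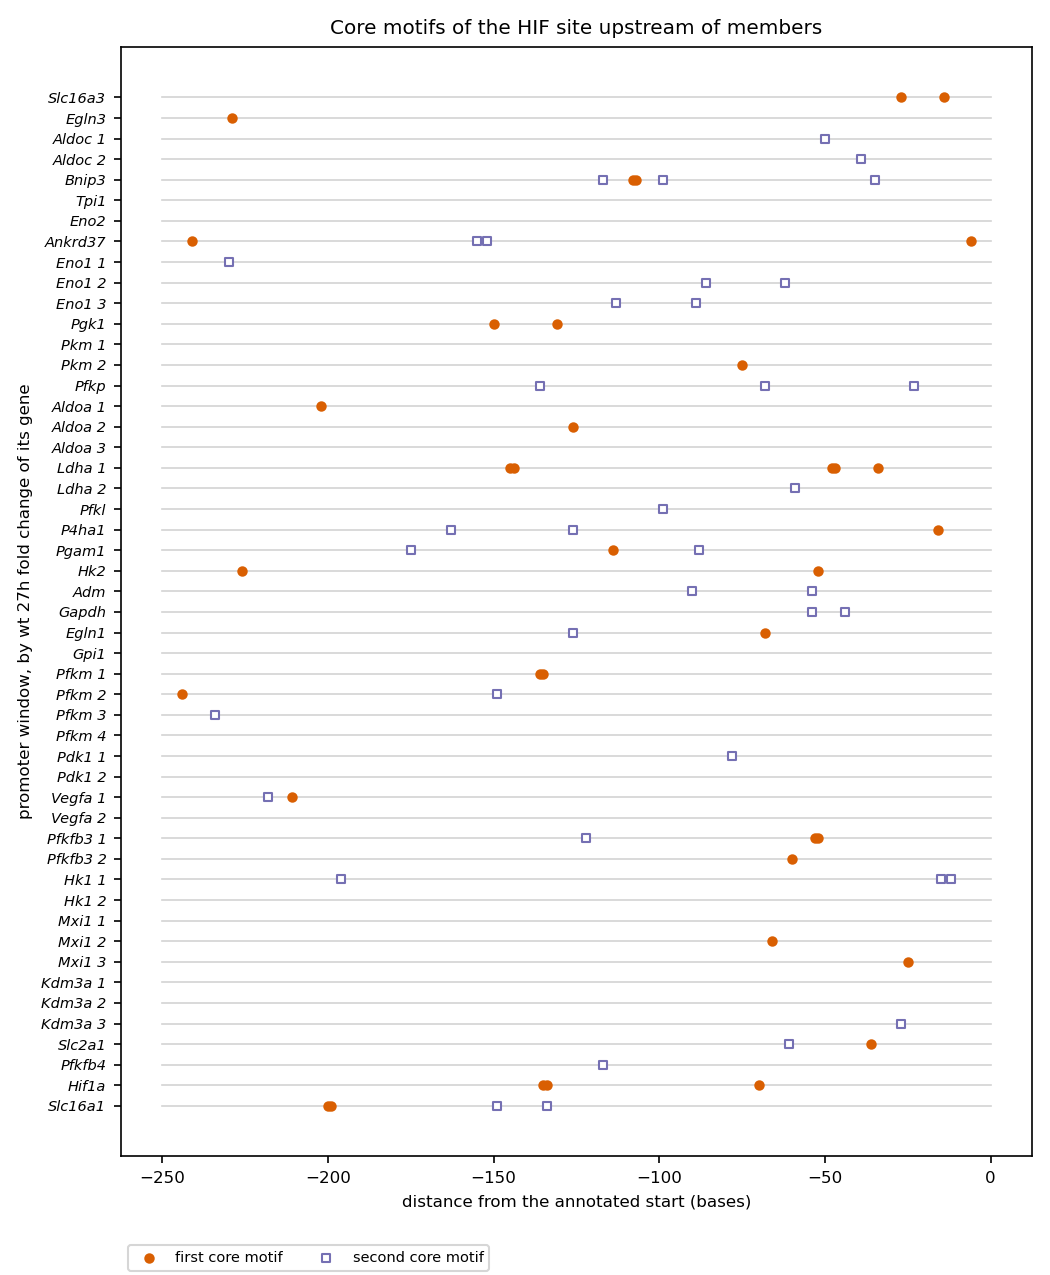
Position of each match to the core in the 50 upstream windows of the 32 members with a window; the horizontal axis is the distance of the match's first base from the annotated start in bases, filled circles are ACGTG and open squares GCGTG on either strand, and rows are ordered by the wt 27h fold change of the gene. Slc16a3 and Egln3 at the top and Hif1a and Slc16a1 at the bottom all carry filled circles, while Tpi1 and Eno2 carry no mark.

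Between 6h and 27h in wt, 16 of the 36 members were called, 13 higher and 3 lower, against 34.1% of all genes (15.9% higher, 18.2% lower), and the members' median was 0.63 against 0.01. Enzymes made up most of the calls, with 10 of 16 called higher and 1 lower. Of the 10 HIF targets none was called higher and 1, Mxi1, was called lower. The spread used here was shared with dbko, where Bnip3, for instance, had 7.36 and 31.7 CPM in the 6h libraries. Fitted on the wt 6h and 27h libraries alone, more of the 36 members were called, and that count is given in the closing section. Among the targets not called, Bnip3, Bnip3l, Ankrd37, Ndrg1 and Ero1l had both 27h libraries above both 6h libraries. Adm and Kdm3a had both below. Over all genes tested 40.5% lay above and 39.0% below in this way. Egln3 gained most, by 3.09 ± 0.58 (adjusted p = 0.00338), followed by Aldoc at 2.23 ± 0.27 (adjusted p = 0.00018), Slc16a3 at 1.77 ± 0.55 (adjusted p = 0.0336), Pfkm at 1.73 ± 0.32 and Pkm at 1.62 ± 0.31. Hif1a fell by 0.71 ± 0.11 (adjusted p = 0.000447), Eno2 by 1.13 ± 0.25 and Mxi1 by 0.87 ± 0.25. Only 6 of these calls, Gpi1, Pfkm, Aldoc, Pkm, Hif1a and Egln3, held with each library left out in turn, and 7 or 8 members were called without any 1 of the 4 libraries. With the replicate number, which is also the sequencing lane, as a block, Aldoa (0.78, adjusted p = 0.0401) and Tpi1 (1.38, adjusted p = 0.0485) were called too, against 0.0852 and 0.0553 without it.

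Set per kilobase of exon, several isozyme families changed their leading member in wt, and this description carries no test of its own. Slc16a1 made up 99.8% of the Slc16a1 and Slc16a3 sum in both 0h libraries, 77.0% and 78.2% at 6h, and 50.0% and 49.4% at 27h. Of the 3 HIF prolyl hydroxylases, Egln2 held 80.6% and 81.1% at 0h, Egln1 led narrowly at 6h with 45.4% and 45.8%, and Egln3 held 49.8% and 51.9% at 27h. The shift drew on both sides: Egln2 fell from 130 and 139 CPM at 0h to 78.2 and 74.4 at 27h (-0.82 ± 0.18, adjusted p = 0.00218).

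Hexokinase, which traps glucose in the cell, moved from Hk1 (54.4% and 52.5% at 0h) to the inducible Hk2 (59.6% and 61.8% at 27h). Enolase, as counted, moved from Eno3 (55.9% and 56.3% at 0h) to Eno1 (90.0% and 89.9% at 27h). The 0h lead was narrow, with Eno3 at 11.6 and 13.5 CPM per kb and Eno1 at 9.07 and 10.4. Eno1 shares 26.0% of its windows with other transcripts, so its count and this lead are uncertain. The kinases of pyruvate dehydrogenase moved from Pdk3 to Pdk1. Thus 5 of 11 families had another leading member at 27h than at 0h (4 of 11 without the length correction). In others the order held: Aldoa, Ldha, Slc2a1 and Bnip3l led their families at all 3 wt times on both scales, though the counts of Bnip3 and Bnip3l are uncertain. Some of these leads turn on the length correction: without it Eno1 and Pdk1 led at every wt time, and Pfkp led Pfkl at 6h and 27h, whereas per kb Pfkl led throughout.

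**Figure D4:**
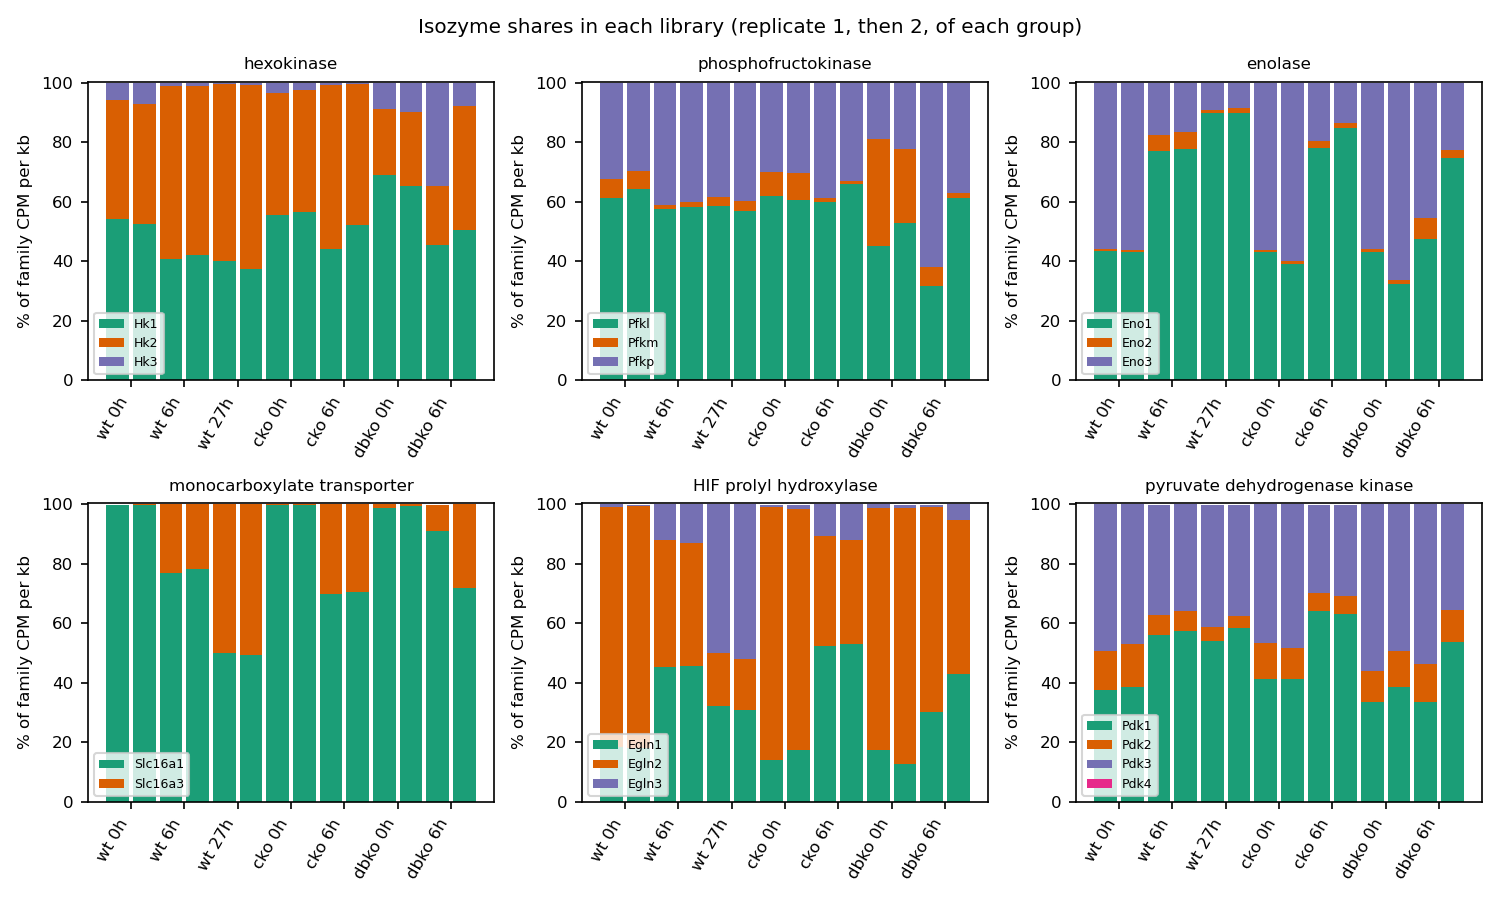
Share of each isozyme in the summed CPM per kb of its family, in percent, for 6 families; each pair of bars is replicate 1 and 2 of a group. Slc16a3 and Egln3 are near 0 in the 0h bars and near 50 in the wt 27h bars, Pfkm stands out in the dbko 0h bars, and Hk3 in dbko 6h replicate 1.

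In cko cells at 0h, edgeR called no member against wt over all 14 libraries, where 1.50% of all genes were called (0.918% higher, 0.578% lower). Over all genes 116 calls were higher and 73 lower, and by DESeq2 281 and 104. At an unadjusted p under 0.05 there were 2 members, and DESeq2 called 0. Fitted on the 0h libraries of cko and wt alone, edgeR called 6 members, 4 higher and 2 lower, P4ha1 among them, and with no filter on low counts it called 1, P4ha1. P4ha1 had the widest gap, with 76.5 and 64.1 CPM in cko against 29.3 and 27.6 in wt, a log2 fold change of 1.31 that was not called. All the same, both cko libraries lay above both wt libraries, as was so for 3361 of the 12630 genes tested. The starting levels of the other members differed by -0.40 to 0.95.

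After 6h with BAFF the cko cells showed a rise of like extent. Of the 36 members 31 were called, 30 higher and 1 lower, against 41.9% of all genes (21.8% higher, 20.1% lower), and the median was 2.06 against 0.05. Slc16a3 went from 0.529 and 0.298 CPM to 31.2 and 38.4 (6.37 ± 0.96, adjusted p = 0.000573), and Slc16a1 from 195 and 221 to 60.1 and 76.4 (-1.61 ± 0.18). Tpi1 went from 50.6 and 53.0 CPM to 451 and 607 (3.35 ± 0.54), Bnip3 from 4.55 and 3.68 to 63.1 and 77.2 (4.09 ± 0.55), and Egln3 from 1.59 and 2.68 to 25.2 and 34.3 (3.79 ± 0.76). P4ha1 was the HIF target not called (1.22 ± 0.48, adjusted p = 0.0683), at 156 and 171 CPM after 6h, close to wt. Of the 31 calls 26 held with any 1 library left out, and Hk2, Pfkl, Pfkfb4, Vegfa and Kdm3a did not, each losing its call without cko 0h replicate 2 and 3 of them (Hk2, Pfkfb4, Vegfa) also without cko 6h replicate 1.

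Set directly against wt at 6h, 1 member was called in cko, against 3.54% of all genes (1.58% higher, 1.96% lower). Eno2 was lower, at 9.496 and 7.85 CPM against 19.5 and 21.7 (-1.25 ± 0.25, adjusted p = 0.0161), and that call was lost without cko 6h replicate 2 or either wt 6h library (adjusted p up to 0.184). Vegfa, at 74.0 and 58.2 CPM against 122 and 130, was not called (-0.93 ± 0.25, adjusted p = 0.0734). When the 6h response of cko was compared with that of wt, edgeR called no member, against 1.70% of all genes (0.554% higher, 1.15% lower). Those calls were 70 higher and 145 lower, or 50 and 177 with DESeq2's size factors. There were 2 members at an unadjusted p under 0.05 and 0 by DESeq2, and the members' differences in response ranged from -1.90 to 0.79 in log2. Fitted on the compared groups alone, 7 members were called, 2 higher and 5 lower, and with no filter on low counts 4 were, all lower.

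In dbko cells at 0h, 2 members differed from wt, against 11.7% of all genes (7.10% higher, 4.55% lower). Pfkm, the muscle-type phosphofructokinase, was higher, at 36.6 and 21.8 CPM against 3.96 and 3.68 in wt and 6.14 and 6.16 in cko (2.93 ± 0.34 against wt, adjusted p = 0.000144). Ndrg1, a stress-response gene, was lower, at 8.45 and 7.47 CPM against 16.8 and 16.6 in wt and 21.5 and 19.6 in cko (-1.06 ± 0.15, adjusted p = 0.00056). Both calls held with each library left out and both were made against cko as well (2.25 ± 0.32 and -1.37 ± 0.15), where 3 members and 9.03% of genes were called (6.63% higher, 2.39% lower). The third was Hif1a (-0.39 ± 0.11, adjusted p = 0.0416), lost without dbko 0h replicate 1 or either cko library. With the lane block Hk1 was called against cko too (0.61, adjusted p = 0.0458 against 0.0514 without it).

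As a share of the 3 phosphofructokinases per kilobase, Pfkm made up 35.8% and 24.9% in dbko at 0h, and 6.37% and 6.00% in wt. After 6h it was down to 7.04 and 3.52 CPM (-2.47 ± 0.32, adjusted p = 7.94e-05). An erythroid gene ran alongside in dbko. Pklr, the liver and red cell pyruvate kinase, had 47.0 and 23.7 CPM in dbko at 0h, 0.417 and 0.387 in wt, and 0.809 and 0.0782 in dbko at 6h. In cko at 0h it had 3.39 and 2.39 CPM. The genes parted in wt at 27h, where Pklr was at 0 CPM in both libraries and Pfkm at 13.4 and 16.7. The part of red cell precursors in the Pfkm values was not tested.

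The 6h response of dbko was split between its libraries. Against the mean of its 0h libraries, dbko 6h replicate 1 held 6 of 36 members at least 2-fold higher, where 8.80% of all genes were, and replicate 2 held 25, where 7.41% were. In wt each 6h library held 28 (8.84% and 7.97% of all genes), and so did each cko library (7.87% and 6.86%), while the wt 27h libraries held 30 and 31 (9.75% and 10.2%). The median log2 ratio of the members was 0.30 in dbko replicate 1 and 1.29 in replicate 2, against 1.82 and 1.93 in wt and 1.91 and 2.06 in cko. For the HIF targets alone it was -0.05 and 1.29. Replicate 2 had 20 of the 36 members at least 2-fold above replicate 1 and none below, whereas 2.26% of all genes were that much higher in replicate 2 and 6.67% that much lower. No other group had a member 2-fold apart between its libraries, apart from Slc16a3 in dbko at 0h (4.23 and 1.72 CPM).

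**Figure D5:**
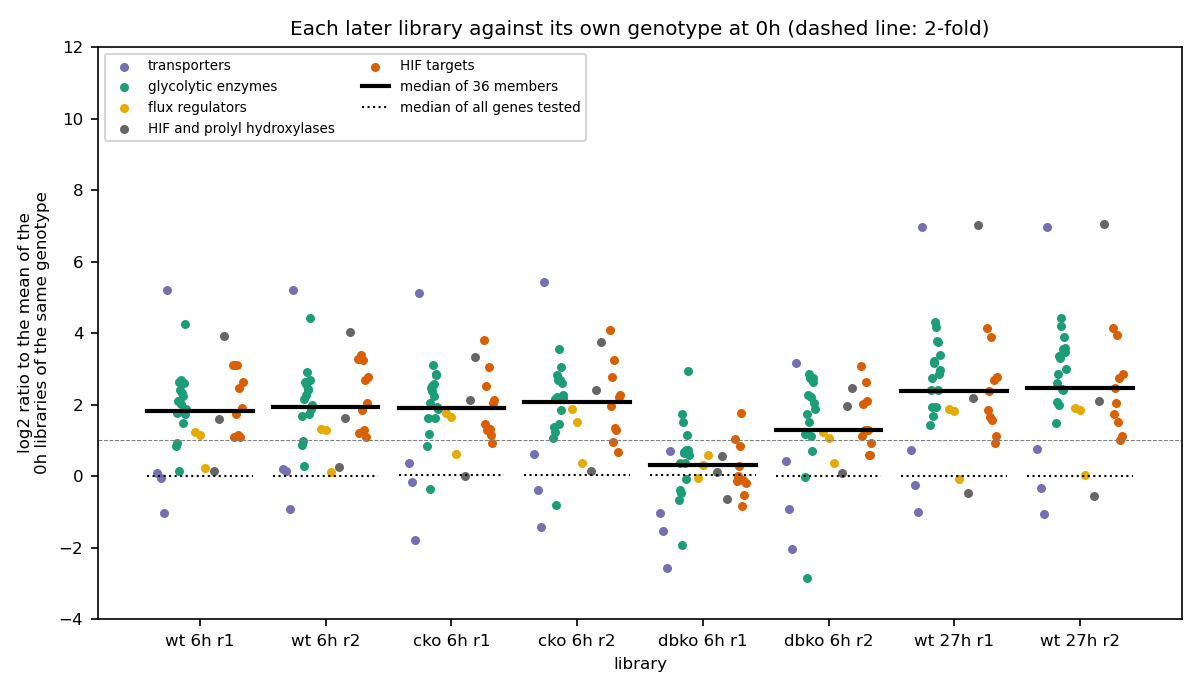
Log2 ratio of each member (points, coloured by role) in each 6h and 27h library to the mean of the 0h libraries of the same genotype, from log2(CPM + 0.5); the solid bar is the median of the 36 members, the dotted bar that of all genes tested, and the dashed line marks 2-fold. The solid bar lies at 0.30 in dbko 6h replicate 1 and at 1.29 in dbko 6h replicate 2, and between 1.82 and 2.06 in the wt and cko 6h libraries.

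By gene the gap was wide. Egln3 had 1.05 CPM in dbko 6h replicate 1 and 12.8 in replicate 2, from 1.69 and 2.20 at 0h. Slc16a3 had 4.77 and 28.5 CPM, Tpi1 107 and 449, Pfkl 66.5 and 311, Bnip3 7.36 and 31.7, Adm 4.13 and 18.2, and P4ha1 22.6 and 101.2. In replicate 1 some members lay below 0h, such as Hk2, at 17.8 CPM against 24.2 and 22.4, and Slc2a1, at 57.4 against 112 and 123. Others lay above it, such as Gpi1, at 322 CPM against 242 and 257.5, Pfkp, at 261 against 77.7 and 78.6, and Eno2, at 13.8 against 1.41 and 1.34. Summed G2 and mitosis genes stood at 1533 and 393 CPM in these libraries, summed macrophage markers at 671 and 347, and summed B cell markers at 8536 and 8302. Myc, which is also known to drive glycolytic genes, stood at 104 and 257 CPM. The part of any of these in the gap was not tested.

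Tested over both libraries, 21 of 36 members were called in dbko between 0h and 6h, 18 higher and 3 lower, against 39.6% of all genes (19.3% higher, 20.3% lower). Without dbko 6h replicate 1 the count was 33, and without replicate 2 it was 22. Of the 21, 16 held with each library left out: Gpi1, Pfkp, Aldoa, Tpi1, Pgk1, Eno1, Eno2, Pkm, Ldha, Egln1, Bnip3, Ankrd37 and Ndrg1 rose, and Slc2a3, Slc16a1 and Pfkm fell. The largest of these was Eno2, at 3.17 ± 0.31 (adjusted p = 8.65e-06), then Bnip3 at 2.54 ± 0.57 and Aldoa at 2.33 ± 0.34, from 223 and 289 to 722 and 1842 CPM. Slc16a1 fell by 2.31 ± 0.18 (adjusted p = 1.69e-06), from 281 and 223 to 41.3 and 60.6 CPM, and Slc2a3 by 1.23 ± 0.20, from 56.0 and 79.5 to 22.6 and 35.3. For all 18 rises and 3 falls, both 6h libraries lay on the same side of both 0h libraries. These genes were picked by their calls, and over all genes tested 31.4% lay above and 29.4% below in this way. The rise was larger in replicate 2 for each gene but Eno2 and Pfkfb4. Fitted on the dbko libraries alone, 6 calls were made: Aldoa, Eno2, Ndrg1, Pfkp, Pfkm and Slc16a1. Only 4 of the 10 HIF targets were called (Bnip3, Vegfa, Ankrd37 and Ndrg1), and Vegfa was lost without dbko 6h replicate 2 or either 0h library (adjusted p up to 0.24).

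At 6h, 17 members differed between dbko and wt, 1 higher and 16 lower, against 26.7% of all genes (15.2% higher, 11.5% lower), with a median of -0.70 against 0.05. The calls were 6 of the 10 HIF targets, 7 of the 16 enzymes, 2 transporters and 2 flux regulators. Leaving out dbko 6h replicate 2 raised the count, and leaving out either wt 6h library lowered it. Such a refit leaves 1 library in a group, so the spread within that group drops out of the estimate. The 8 calls that held with each library left out were all lower in dbko: Slc2a3, Slc16a1, Hk2, Pgam1, Adm, Vegfa, Mxi1 and Ero1l. Adm had 4.13 and 18.2 CPM against 81.0 and 98.8 (-3.003 ± 0.476, adjusted p = 0.0019), Ero1l 34.1 and 75.1 against 198 and 217 (-1.92 ± 0.27, adjusted p = 0.000683), and Slc2a3 22.6 and 35.3 against 86.5 and 98.1 (-1.67 ± 0.20, adjusted p = 0.000149). Hk2 had 17.8 and 53.6 CPM against 116 and 110 (-1.66 ± 0.36), Vegfa 31.9 and 63.9 against 122 and 130 (-1.40 ± 0.26), and Mxi1 17.7 and 39.1 against 71.0 and 78.9 (-1.40 ± 0.25). For these genes both dbko libraries lay below both wt libraries, as was so for 29.4% of all genes tested. Fitted on the compared groups alone, 3 calls were made, Slc2a3, Slc16a1 and Ero1l.

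By contrast, Aldoa, Tpi1, Eno1, Pkm and Ldha were not called against wt at 6h, and dbko replicate 2 alone came close to wt for them, as with Ldha at 900.3 CPM against 881 and 957. The member called higher, Pfkfb4, at 63.2 and 54.5 CPM against 43.4 and 40.1 (0.50 ± 0.13, adjusted p = 0.0148), lost its call without dbko 6h replicate 1 or either wt library. With the lane block Egln3 (-1.82, adjusted p = 0.0328) and Bnip3 (-1.36, adjusted p = 0.0257) were called too, against 0.0582 and 0.0522 without it.

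Compared with cko at 6h, 14 members were lower in dbko and none was higher, against 13.4% of all genes (8.77% higher, 4.66% lower). Slc2a3, Ndrg1, Mxi1 and Ero1l kept that call with each library left out (-1.41 ± 0.20, -0.70 ± 0.13, -1.49 ± 0.25 and -1.56 ± 0.27). The count was 32 without dbko 6h replicate 2, 4 or 6 without cko 6h replicate 1 or 2, and 1 (Slc2a3) on the compared groups alone. With the lane block 5 more were called: Slc2a1 (adjusted p = 0.0261), Gpi1 (0.0465), Egln1 (0.0421), Egln3 (0.0313) and Bnip3l (0.0183), with adjusted p of 0.0539, 0.073, 0.0781, 0.0559 and 0.0564 without it.

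The difference between responses takes the 0h levels into account. The 6h response of dbko differed from that of wt for 10 members, against 13.8% of all genes (6.90% higher, 6.94% lower), with 9 lower and 1, Ndrg1, higher. Ero1l (-2.25 ± 0.39, adjusted p = 0.00501), Mxi1 (-1.87 ± 0.37, adjusted p = 0.00821), Pfkm (-2.72 ± 0.47, adjusted p = 0.00387) and Slc16a1 (-1.32 ± 0.25, adjusted p = 0.00546) kept this call with each library left out. On the compared groups alone 4 were called, these without Mxi1 but with Eno2. Mxi1 was called in wt, with a rise of 2.01, and had 26.7 and 25.0 CPM at 0h and 17.7 and 39.1 at 6h in dbko. Against the response of cko, 2 members were called, Hk1 (-1.29 ± 0.25, adjusted p = 0.0335) and Mxi1 (-2.03 ± 0.37, adjusted p = 0.0274), against 0.934% of all genes (0.586% higher, 0.348% lower). Neither held without cko 0h replicate 1 or 2, cko 6h replicate 1 or 2, or dbko 0h replicate 1 (adjusted p up to 0.185), or on the compared groups alone. With the lane block 4 were called, Pgam1 (-1.47, adjusted p = 0.0471) and Ero1l (-1.74, adjusted p = 0.0443) in addition. The comparisons with wt and with cko share the dbko libraries, so they are not separate evidence.

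Other genes of these pathways were counted in wt beside all genes tested, of which 22.6% rose and 23.5% fell at 6h, and 23.0% rose and 24.6% fell at 27h. Of 26 other glycolysis genes 15 were tested, and at 6h 3 rose and 3 fell, with a median of -0.12. Bsg, the chaperone that carries MCT1 and MCT4 to the cell surface, rose from 116 and 113 CPM to 229 and 245 at 6h and to 339 and 346 at 27h (1.05 ± 0.22, adjusted p = 0.0021, and 1.58 ± 0.22), and Slc16a7, another monocarboxylate transporter, fell from 14.1 and 15.5 to 3.20 and 2.80 at 6h (-2.30 ± 0.37). Among 11 tested components of the HIF pathway 2 rose and 3 fell at 6h. Siah2, a ubiquitin ligase that destroys prolyl hydroxylases, fell from 172 and 181 CPM to 29.9 and 31.1 (-2.53 ± 0.17, adjusted p = 5.11e-07), and in dbko from 87.8 and 129 to 23.6 and 29.6 (-2.02 ± 0.17).

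Of 31 other tested hypoxia-response genes, 12 rose and 5 fell in wt at 6h, with a median of 0.48, and 14 rose and 5 fell at 27h. Ak4, a mitochondrial adenylate kinase, went from 0.208 and 0.194 CPM to 8.88 and 9.43 and then 41.97 and 40.8 (5.43 ± 0.84 at 6h, adjusted p = 0.000393), and Ddit4, an inhibitor of mTORC1, from 26.4 and 23.5 to 69.2 and 79.7 and then 159 and 145. In dbko at 6h Ak4 had 1.29 and 7.04 CPM, the same order between the libraries as in most members. The pyruvate dehydrogenase and TCA cycle list, 20 genes tested, had 1 rise and 2 falls at 6h and 10 rises at 27h, with a median of 0.24. Of 9 genes of serine synthesis and amino acid supply, 7 rose at 6h. Of the 8 tested MYC family genes none rose and 4 fell at 6h. Myc itself was not among those falls (-0.40 ± 0.30 at 6h, adjusted p = 0.312). It had 688 and 715 CPM at 0h, 480.1 and 586 at 6h and 180.1 and 176 at 27h in wt. By 27h it fell by 1.98 ± 0.32 (adjusted p = 0.000472). Other genes of the list had lower levels at 6h, such as Mxd1, at 36.7 and 41.4 CPM against 95.2 and 102 at 0h. Mxd4 had 53.0 and 48.7 CPM against 157 and 154.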

How the data were processed

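RNA-seq of splenic follicular B cells was deposited as 1 table of raw counts per gene ID for each of the 14 libraries (poly-dT primed RNA, per the labels' protocols). CASAVA 1.8.2 is named in the submitters' processing notes, and the sources used here name no aligner, counter, genome build or strand setting. The authors' count tables also tally reads outside the genes: 38.8% to 49.9% had no unique position and 5.21% to 11.5% no gene, and these tallies were left out. Of 39179 IDs, 37607 were given a symbol from GENCODE M21 (99.5% of counts). With 10497802 to 11888765 counts a library, counting error is small except for members with few reads in some libraries. The lowest counts were 3 for Slc16a3, 4 for Eno2, 10 for Egln3, 22 for Gapdh and 31 for Bnip3. All p-values come from edgeR 4.0.16 (R 4.3.3): quasi-likelihood F tests with robust dispersion, TMM scaling, filterByExpr, 7 group means over 14 libraries with 7 residual degrees of freedom, and Benjamini-Hochberg adjustment over 12630 genes at a threshold of 0.05. Recovery of known changes was tested on simulated counts. CPM use TMM library sizes, levels per kb divide by GENCODE exon length, and library ratios use log2(CPM + 0.5). Figures and summaries used Python 3.11.15, NumPy 2.4.6, pandas 2.3.3 and Matplotlib 3.10.9.

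Alternatives were DESeq2 1.42.0, edgeR with DESeq2's size factors, all genes kept without a count filter, the compared groups fitted alone, a replicate block, and each library left out. Leaving out both dbko libraries of 1 replicate number was added after seeing the data. A group left with 1 library adds nothing to the estimated spread. Where its libraries differ widely, as in dbko at 6h, the count of calls can rise for that reason alone. Per the labels a replicate number is also a sequencing lane, so the numbers pair libraries by lane. Deviations from group means correlated between -0.17 and 0.483 over 21 pairs of groups, above 0.1 in 4. The highest, 0.483, was between dbko 0h and dbko 6h, and the next, 0.158, between wt 6h and cko 6h. The main test makes no use of this pairing, and whether same-numbered dbko libraries share a preparation is not known. The members and all lists were chosen with earlier results of these data known. Values in every library are given for called members among the 6 largest changes of their role in a comparison, and for any that went against its role; of other lists, counts and at most 4 called genes. Some marker genes are not reported here.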

Additional observations from a re-analysis of the deposited data

Results flagged for a closer look

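The 6h response differed between dbko and wt, by the interaction term in edgeR, for 10 members. On the log2 scale the difference, dbko minus wt, was -2.717 for Pfkm, -2.252 for Ero1l, -1.873 for Mxi1 and -1.319 for Slc16a1, and these 4 calls held with each library left out. It was -1.268 for Slc2a3, whose call was lost without wt 0h replicate 1 or wt 6h replicate 2, and -1.185 for Hk1, lost without wt 0h replicate 1. It was -2.032 for Eno2 (lost without dbko 0h replicate 1, either wt 0h library or wt 6h replicate 2) and -1.324 for Pgam1 (lost without dbko 0h replicate 2 or any of the 4 wt libraries). Gapdh, at -1.627, lost its call without any library but dbko 6h replicate 2. Ndrg1 alone was positive, at 0.768, and lost its call without any of the 4 wt libraries. Against the cko response, Hk1 (-1.286) and Mxi1 (-2.027) differed. Both comparisons contain the diverging dbko 6h libraries.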

How the results depend on the processing

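Counts of called members kept within 1.5 times their value under every alternative for wt 6h and wt 27h against 0h and for cko 6h against 0h. DESeq2's size factors moved no count beyond that. Fitted on the compared groups alone, the counts were 29 for wt 27h against 6h, 6 for dbko 6h against 0h, 6 for cko against wt at 0h and 4 at 6h, at 6h 3 and 1 for dbko against wt and cko, and, for the differences in response, 7 (cko and wt), 4 (dbko and wt) and 0 (dbko and cko). With no filter on low counts they were 27 for wt 27h against 6h, 1 and 8 for cko against wt at 0h and 6h, 10 and 33 for dbko against wt, 12 and 32 for dbko against cko, and 4, 23 and 23 for the responses in the same order. DESeq2 called 4 and 5 for dbko at 0h against wt and cko, 3 for cko against wt at 6h, and 6 for the dbko and cko responses.

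With 1 library left out, the counts ranged from 7 to 8 for wt 27h against 6h, 18 to 33 for dbko 6h against 0h, 2 to 4 and 2 to 5 for dbko against wt and cko at 0h, and 0 to 1 for cko against wt at 6h. They ranged from 8 to 33 and 4 to 32 for dbko against wt and cko at 6h, and from 4 to 34 and 0 to 28 for the dbko response against those of wt and cko. Without both dbko replicate 1 libraries the counts were 32 for dbko 6h against 0h, 10 and 8 for dbko against wt and cko at 0h, and 8 for the dbko and cko responses. Without both replicate 2 libraries they were 16 and 14 at 0h, 34 and 35 at 6h, and 32 and 30 for the responses.

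The replicate block, which pairs libraries by lane, gave 4 for the dbko and cko responses against 2 without it, added the 12 calls given beside their results, lost none and changed no other call. In dbko 6h against 0h, 11 members, none of them called there, turned negative without dbko 6h replicate 2. Without dbko 6h replicate 1 only Slc2a1 turned sign, to positive. Without dbko 6h replicate 2, Mxi1 was at -0.543, P4ha1 at -0.866 and Pfkl at -0.478, and without replicate 1 at 0.599, 1.299 and 1.746. Without both replicate 2 libraries they were at -0.588, -0.786 and -0.474, and Mxi1 was at 0.633 without both replicate 1 libraries. Slc2a1 was at 0.417 without dbko 6h replicate 1 and at -1.027 without replicate 2. The cause was not tested.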
